A study of Homo sapiens with 12 samples.

Results

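The 39 genes described here are targets of p53, the tumour suppressor that acts as a transcription factor, and their RNA was measured in MOLM-13, an acute myeloid leukemia (AML) cell line with an MLL-AF9 fusion. They were taken as a list of gene symbols, matched by name, and the list was chosen with earlier results of these data known. All 39 were among the 46639 symbols of the deposited expression table. Ribosomal RNA-depleted, strand-specific RNA-sequencing was done on 12 libraries in 4 groups of 3. The groups were untreated cells, cells given 100 nM decitabine (DAC) daily, cells given 1 µM all-trans retinoic acid (ATRA), and cells given both (DAC+ATRA). The labels give a medium with 20% FCS and GM-CSF for all cells, whereas the study's methods describe one with less FCS and do not mention GM-CSF, and no vehicle-treated library was analysed here. The labels give 72 h for the treated groups and 96 h for the untreated group, whereas the series design gives 1 harvest at 72 h for all, so a part of any difference from untreated cells that comes from time cannot be told apart from the drugs. The labels also give 72 h for ATRA, but the study's methods add ATRA only late in the DAC course. The libraries were technical triplicates of 1 cell line, and p-values therefore measure the spread between these libraries only.

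p53 is kept low by its own targets MDM2 and MDM4, and it accumulates after DNA damage and other stresses. It then binds response elements near its target genes, which halt the cell cycle, favour cell death, repair DNA and change metabolism. Decitabine is a cytosine analog that is built into DNA and traps DNA methyltransferases there, which lowers DNA methylation and also damages DNA. ATRA binds retinoic acid receptors and drives myeloid leukemia cells towards differentiation. The 39 genes were ordered by role, with 5 that feed back on p53, 6 of the cell cycle, 13 death receptors and cell death genes, 4 of DNA repair, 6 of metabolism and redox balance, and 5 others.

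The DNA that p53 reads near these genes is shown first, because many p53 targets are reached through such elements. The search for the elements used no expression value. A p53 response element was searched as 20 bases, made of a pair of 10-base sites without a spacer, each with the core C, A or T, A or T, G kept, and with at most 2 bases outside the p53 consensus. The search covered 3000 bases on either side of the start of the canonical GENCODE transcript, on both strands of GRCh38 (hg38). Such an element was found at 14 of the 39 members (35.9%) and at 571 of 20038 genes with a window (2.85%), and elements with no base outside the consensus were found at 16 genes (0.0798%), 2 of them members. Genes are named p53 targets in part because p53 binds near them, so these shares are a description, a match is not a measured binding site, and no match says only that these letters are absent from the window. In the elements of 7 members with values given below, capitals mark the bases that fit the consensus and lower case marks those outside it:
CDKN1A: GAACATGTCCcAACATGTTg
BTG2: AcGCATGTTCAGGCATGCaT
PLK2: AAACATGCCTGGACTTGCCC
AEN: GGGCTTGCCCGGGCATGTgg
DRAM1: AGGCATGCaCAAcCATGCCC
GDF15: cAtCTTGCCCAGACTTGTCT
ZMAT3: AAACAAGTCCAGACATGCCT
The CDKN1A element lies at chr6:36676449-36676468 on the plus strand, at -2256 bases from the canonical start, and spans the first base of the longest annotated gene model. BTG2 has its element at chr1:203303642-203303661 on the plus strand, at -1868 bases from the start. The PLK2 element, at chr5:58462274-58462293 on the minus strand, lies at -2197 bases and has no base outside the consensus. AEN has an element at -25 bases from its start, at chr15:88621306-88621325 on the plus strand. The DRAM1 element sits in intron 1 at chr12:101880194-101880213 on the plus strand. The GDF15 element, at chr19:18385308-18385327 on the plus strand, lies at -841 bases from the canonical start and within the annotated span of the gene. ZMAT3 carries its element in intron 1 at chr3:179070188-179070207 on the minus strand, also with no base outside the consensus. The remaining members with an element were CCNG1, EDA2R, FAS, GADD45A, PANK1, SPATA18 and 1 more, whose element is not printed.

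The deposited values are read counts divided by 1 size factor per library, called normalised counts here, and transcript rows were summed per gene. Reads summed over all genes came to between 8951104 and 11944630 per untreated library, 4671214 and 6954604 per DAC library, 8363702 and 10685348 per ATRA library, and 5607158 and 7162775 per DAC+ATRA library, so values in DAC-treated cells rest on fewer reads. DAC replicate 3 stood apart from the other DAC libraries, with a chi-square per degree of freedom over genes of 14.05 and 21.69 against them, where replicates 1 and 2 gave 4.36 against each other. Wide pairs were also found elsewhere, with 12.64 between untreated replicates 1 and 3. ATRA replicate 1 gave 11.26 and 13.51 against the other ATRA libraries. Of the myeloid markers, CEBPA had 5729 to 17452 and SPI1 335 to 467.1 normalised counts over all libraries. PTPRC was low, at 5.105 to 50.07, and CD14 reached at most 14. Of the myeloid list, the summed level was 69352 to 78116 in untreated cells, 182044 to 223187 with DAC, 21131 to 26271 with ATRA and 67478 to 72041 with both. LYZ averaged 41628, 153287, 6819 and 40819 in the same order, and MPO 1513, 22033, 805.1 and 10424. Other means differed in direction. With DAC, FLT3 fell from 14027 to 8281 and CEBPA from 15377 to 12099, while FCGR1A rose from 1619 to 2164. With ATRA, CD33 rose from 372.3 to 549.3 and SPI1 from 340.7 to 403.3, while FLT3, CEBPA and FCGR1A fell. The markers of other cell types CD2, MS4A1, ALAS2, PF4, CDH1 and COL1A2 were at 0 in every library, megakaryocyte markers (ITGA2B, with PF4 at 0) summed to 22.55 to 25.72 in untreated cells, 25.04 to 44.52 with DAC, 4.18 to 10.75 with ATRA and 1.13 to 5.60 with both, T cell markers summed to at most 40.77, B cell markers to at most 39.82 and fibroblast markers to at most 86.32, the last from COL1A1 in ATRA libraries. Fewer cells of a type and less RNA per cell cannot be told apart in such bulk samples.

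Differences were tested with limma on log2(normalised count + 1) over 10642 protein-coding genes, those that reached 10 normalised counts in 3 or more libraries, and called at an adjusted p under 0.01. Fold changes on this scale understate the change of low genes. Of the 39 members, 35 passed the filter, and FAS, EDA2R, CYFIP2 and SPATA18 did not. Since a gene could pass through the group where it was high, the counts below describe the 35 and not all 39. In total 26 of the 35 were called in at least 1 of 6 comparisons, as were 41.8% of all genes tested, and 9 were called in none (MDM4, PPM1D, CCNG1, FBXO22, CDKN1A, GADD45A, FDXR, ACER2 and ANKRA2).

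**Figure D1:**
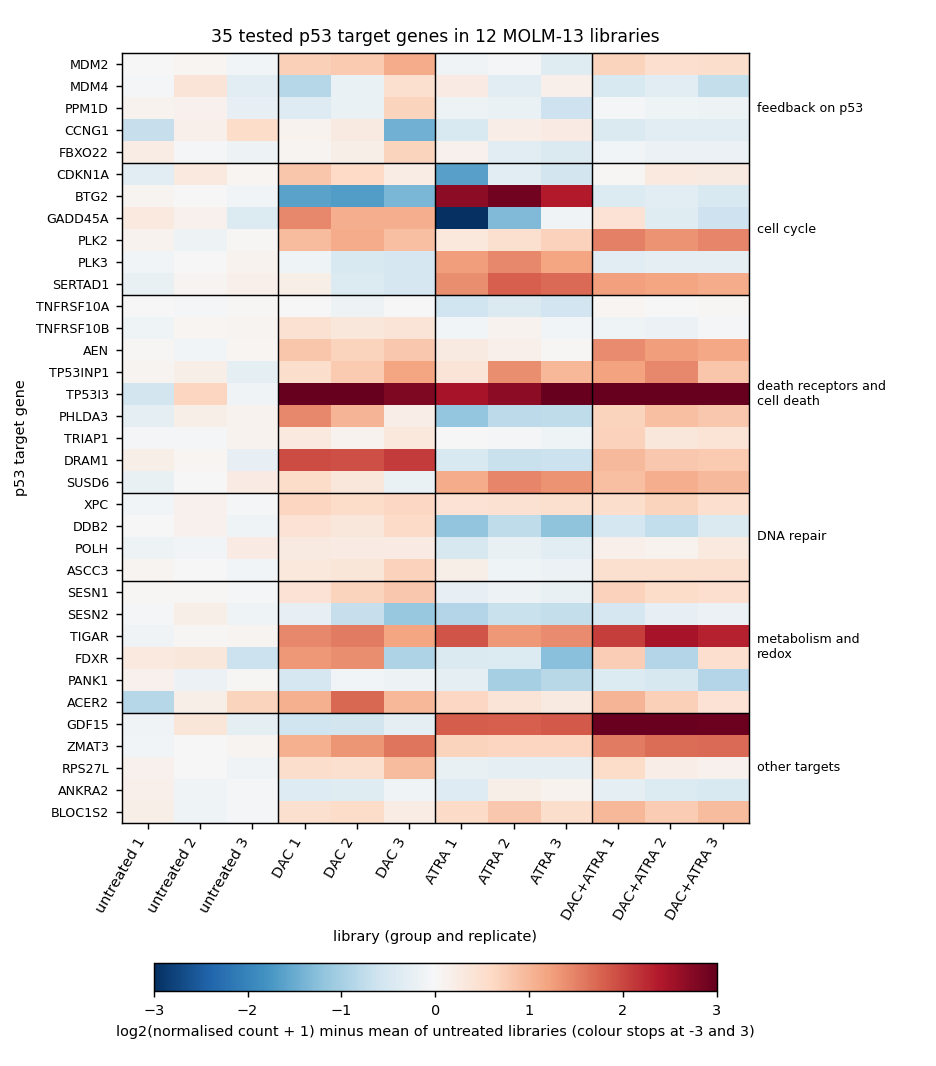
Heat map of the 35 tested p53 target genes (rows, by role) in the 12 libraries (columns, by group and replicate), coloured by log2(normalised count + 1) minus the mean of the 3 untreated libraries, with colours ending at -3 and 3. TP53I3 is above untreated in all treated groups, BTG2 is below untreated with DAC and above it with ATRA, and GDF15 is highest with DAC+ATRA.

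DAC alone raised 11 of the 35 tested members (MDM2, PLK2, TNFRSF10B, AEN, TP53I3, DRAM1, XPC, SESN1, TIGAR, ZMAT3 and RPS27L) and lowered 2, BTG2 and SESN2. The 13 called members were 37.1% of the 35, where 7.97% of all 10642 genes were called. In the upward direction it was 4.29% of all genes and in the downward direction 3.67%. The median log2 fold change of the members was 0.45 and that of all genes -0.00. Without DAC replicate 3, 12 members were called. Fitting the DAC and untreated libraries alone left 8 calls.

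With ATRA alone, 10 members were higher and 6 lower than in untreated cells, together 45.7% of the 35, beside 26.0% of all genes (12.1% higher and 14.0% lower). Higher were BTG2, PLK3, SERTAD1, TP53I3, SUSD6, XPC, TIGAR, GDF15, ZMAT3 and BLOC1S2, and lower were TNFRSF10A, PHLDA3, DRAM1, DDB2, SESN2 and PANK1. The members' median was -0.04, equal after rounding to the median of all genes, -0.04. The combination raised 16 members and lowered 1, DDB2, which made 48.6% of the 35 beside 28.9% of all genes, of which 14.5% were higher and 14.4% lower. The members' median was 0.48 and that of all genes -0.00. These 3 comparisons share the untreated libraries.

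Adding DAC to ATRA was measured as DAC+ATRA against ATRA, and its fold changes used no library of the DAC comparison above. Its calls were not separate, because the spread behind the p-values was shared over all 12 libraries. Adding DAC to ATRA raised 13 members and lowered 2 (BTG2 and PLK3), 42.9% of the 35 beside 11.9% of all genes (6.47% higher and 5.46% lower), with a median of 0.53 beside 0.03 for all genes. MDM2, PLK2, AEN, TP53I3, DRAM1, SESN1 and ZMAT3 were called higher in both DAC comparisons. The DAC change had the same sign without and with ATRA in 29 of 35 members, and was positive in both in 23. Across genes, the DAC changes without and with ATRA had a Pearson correlation of 0.791 and a Spearman correlation of 0.680 over the 35 members, beside 0.550 and 0.500 over all 10642 genes. Genes are not independent replicates, and these values describe the libraries only. Adding ATRA to DAC, measured as DAC+ATRA against DAC, raised 7 members and lowered 3 (28.6% beside 18.8% of all genes, 9.04% higher and 9.74% lower).

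**Figure D2:**
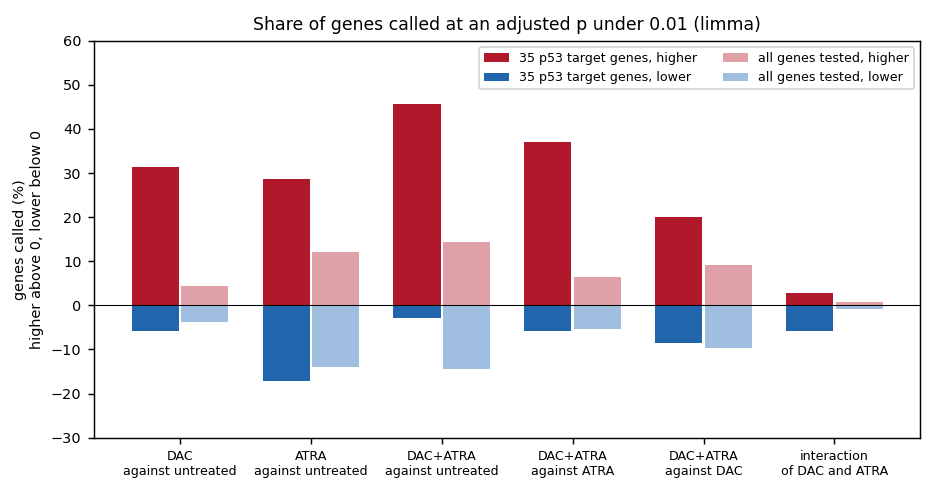
Share of genes called at an adjusted p under 0.01 (limma, percent, higher above 0 and lower below 0) in each of the 6 comparisons, for the 35 tested p53 target genes (dark bars) and all 10642 genes tested (pale bars). DAC against untreated and DAC+ATRA against ATRA call 37.1% and 42.9% of the members and 7.97% and 11.9% of all genes.

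**Figure D3:**
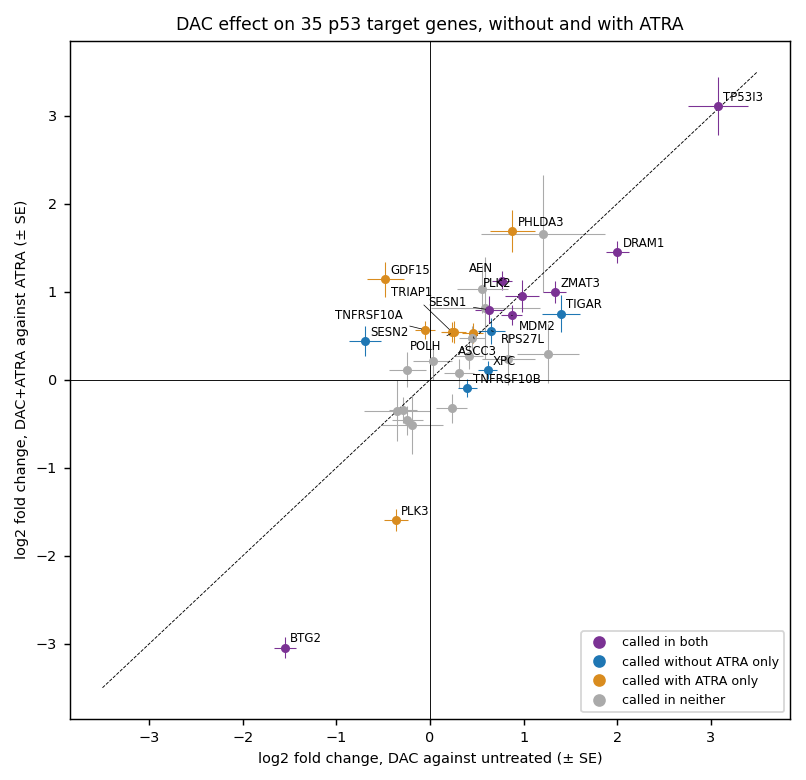
Log2 fold change (± SE) of the 35 tested p53 target genes with DAC in the absence of ATRA (horizontal axis) and in its presence (vertical axis), coloured by the comparison in which a gene was called, with a dashed line of equal change. Most members lie right of and above 0, TP53I3 is farthest in that direction, BTG2 is lower in both, and GDF15 rises only where ATRA is present.

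Among the feedback genes, MDM2, the ubiquitin ligase that marks p53 for degradation, rose with DAC whether ATRA was present or not. It had 2587, 2695 and 2453 normalised counts in untreated cells, 4198, 4441 and 5608 with DAC, 2389, 2503 and 2017 with ATRA and 4062, 3647 and 3724 with both drugs. All DAC-treated libraries lay above all others, and DAC replicate 3 was the highest. The log2 fold change was 0.87 ± 0.12 (SE, adjusted p = 3.07e-05) with DAC, 0.56 ± 0.12 (SE, adjusted p = 0.000648) with DAC+ATRA against untreated, and 0.73 ± 0.12 (SE, adjusted p = 0.000142) with DAC+ATRA against ATRA. ATRA alone gave -0.17 ± 0.12 (SE, adjusted p = 0.279) and overlapped with untreated.

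MDM2 has a pair of promoters, the inner of which lies in intron 1 and is the one known for its response to p53. Reads of MDM2 fell almost all (97.9%) in a row that starts at the first promoter, whose rows averaged 2530 ± 115.7 (SD, n = 3) in untreated and 4655 ± 778.8 in DAC libraries. The 10 rows that start in intron 1 averaged 48.36 ± 5.15 in untreated cells, 93.78 ± 30.95 with DAC, 58.66 ± 15.88 with ATRA and 85.38 ± 3.03 with both drugs, from 52 to 101 reads a library. The rows share most exons, and how reads common to several transcripts were assigned is not given in the sources used here, so the levels of the promoters cannot be told apart firmly. The other feedback genes were not called in any comparison. MDM4, which masks the activation domain of p53, had 16.54 to 43.54 normalised counts over all libraries. PPM1D, a phosphatase that reverses damage signalling, had 205.7 to 507.2, CCNG1 (cyclin G1) had 74.02 to 296.7, and FBXO22, a ubiquitin ligase subunit, had 435.6 to 942.6. DAC replicate 3 held the highest MDM4, PPM1D and FBXO22 and the lowest CCNG1 value of all 12 libraries.

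CDKN1A encodes p21, the inhibitor of cyclin-dependent kinases through which p53 halts the cell cycle, and it passed the threshold in no comparison of this fit, although it did in some alternative fits. Its normalised counts were 88.65, 138 and 118.6 in untreated cells, 203.5, 172.5 and 132.8 with DAC, 35.84, 90.78 and 76.91 with ATRA and 116.2, 138.5 and 136.8 with both drugs. DAC and untreated libraries overlapped, the DAC+ATRA libraries lay above all ATRA libraries, and 1 ATRA library was far below the other ATRA libraries. With DAC+ATRA against ATRA the log2 fold change was 1.03 ± 0.27 (SE, adjusted p = 0.0101), and it passed without untreated replicate 1, DAC replicate 3 or ATRA replicate 2, and also with DESeq2, total scaling, a pseudocount of 5 or the replicate block, with an adjusted p as low as 0.00364. With DAC alone it was 0.56 ± 0.27 (SE, adjusted p = 0.183) and with ATRA alone -0.83 ± 0.27 (SE, adjusted p = 0.0208), which passed without ATRA replicate 2, with an adjusted p of 0.00642. Of its reads, 84% fell in 1 row, CDKN1A-203, the row of its canonical transcript was at 0 in every library, and the antisense gene DINOL overlaps it.

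BTG2, an antiproliferative protein that recruits the deadenylase complex to mRNA, fell with DAC and rose with ATRA. Values were 2576, 2442 and 2285 in untreated cells, 804, 754.3 and 940.5 with DAC, 15552, 17986 and 12605 with ATRA and 1817, 1929 and 1784 with both drugs. No library of one group overlapped with those of another. The DAC change was -1.55 ± 0.12 (SE, adjusted p = 5.92e-08) and the ATRA change 2.65 ± 0.12 (SE, adjusted p = 1.84e-12). Adding DAC to ATRA lowered it (log2 change -3.05 ± 0.12, adjusted p = 1.7e-12), so that with both drugs it differed from untreated by -0.40 ± 0.12 (SE, adjusted p = 0.0125), which did not pass the threshold here but passed without DAC replicate 3 or ATRA replicate 2 or 3, and also with DESeq2, edgeR, TMM factors, total scaling, only the compared groups fitted or only genes of 1 transcript row, with an adjusted p as low as 0.000365. The interaction, the DAC change with ATRA minus the DAC change without it, was -1.50 ± 0.17 (SE, adjusted p = 3.43e-05). Of all genes, 1.60% had a called interaction, and 3 of the 35 members (8.57%) did, BTG2, PLK3 and GDF15.

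PLK3, a polo-like kinase of the stress response, showed a similar order. It had 329, 349.1 and 377 normalised counts in untreated cells, 319.3, 255.6 and 247.1 with DAC, 844.8, 951.7 and 801.7 with ATRA and 278.6, 287 and 287.9 with both drugs. ATRA libraries lay far above all others, and the remaining groups lay close together. The ATRA change was 1.30 ± 0.13 (SE, adjusted p = 1.13e-07), the change from ATRA to DAC+ATRA -1.60 ± 0.13 (SE, adjusted p = 3.48e-08) and the interaction -1.23 ± 0.18 (SE, adjusted p = 0.000372). The DAC change without ATRA, -0.37 ± 0.13 (SE, adjusted p = 0.0566), did not pass the threshold.

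PLK2, the related kinase whose upstream element has no base outside the consensus, rose with DAC. It had 51.33, 43.03 and 48.93 in untreated cells, 92.87, 103.5 and 90.35 with DAC, 59.13, 66.97 and 77.75 with ATRA and 137.2, 122.7 and 133.8 with both drugs. The groups did not overlap, and their order was untreated, ATRA, DAC and DAC+ATRA. The log2 fold change was 0.99 ± 0.18 (SE, adjusted p = 0.000886) with DAC, a call lost with only the compared groups fitted, with an adjusted p of 0.0156. It was 0.95 ± 0.18 (SE, adjusted p = 0.000916) when DAC was added to ATRA. The combination stood at 1.44 ± 0.18 (SE, adjusted p = 3.59e-06) against untreated. ATRA alone gave 0.49 ± 0.18 (SE, adjusted p = 0.0397), which was not called.

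SERTAD1, a cofactor of E2F transcription and CDK4, followed ATRA. Its values were 224, 277.7 and 292.9 in untreated cells, 299, 197.6 and 186.1 with DAC, 695.2, 919 and 857.7 with ATRA and 614.5, 596.6 and 573.8 with both drugs. All libraries with ATRA lay above all without it. The ATRA change was 1.63 ± 0.16 (SE, adjusted p = 1.86e-07), and the change from DAC to DAC+ATRA was 1.42 ± 0.16 (SE, adjusted p = 1.87e-06). GADD45A, a growth arrest and DNA damage protein, was low, with 11.92 to 20.22 in untreated cells, 35.92 to 45.8 with DAC, 0 to 15.05 with ATRA and 10.21 to 22.4 with both drugs, and was not called. The 0 in ATRA replicate 1 allows up to 2.69 normalised counts, the value of 3 reads there, by counting error only. All DAC libraries of GADD45A were above all others, but its standard errors were wide (1.21 ± 0.66, adjusted p = 0.243 with DAC), and its ATRA change, -1.84 ± 0.66 (SE, adjusted p = 0.0353), passed without ATRA replicate 3, with an adjusted p of 0.00231.

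**Figure D4:**
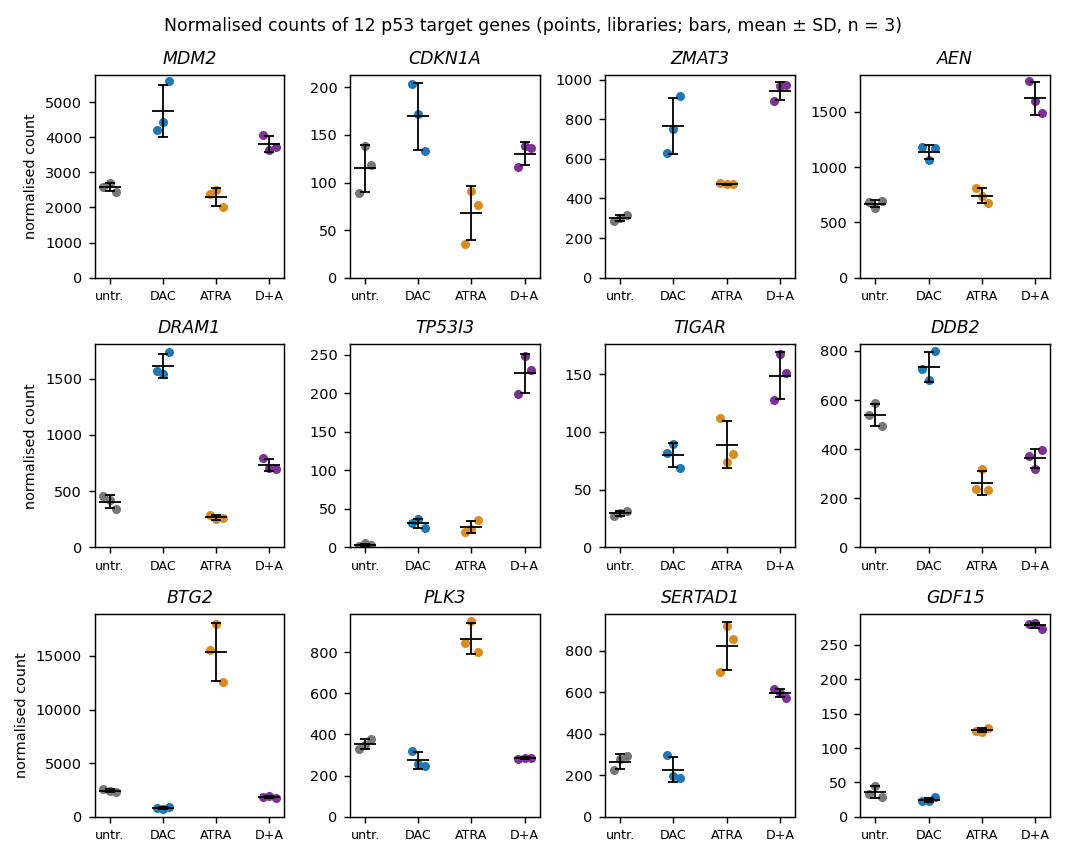
Normalised counts of 12 p53 target genes in each library (points) with mean ± SD (black, n = 3) for untreated (untr.), DAC, ATRA and DAC+ATRA (D+A), each panel starting at 0. MDM2, ZMAT3, AEN and DRAM1 are higher in the groups with DAC than without it at the same ATRA setting, while PLK3 and BTG2 peak with ATRA alone and TP53I3 and GDF15 with both drugs.

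TP53I3 (PIG3), a quinone oxidoreductase that raises reactive oxygen species before cell death, was the member with the largest change. It had 1.555, 4.871 and 2.509 normalised counts in untreated libraries, which rest on 2, 6 and 4 reads. With DAC it had 31.8, 36.07 and 25.04, with ATRA 19.71, 23.07 and 35.11 and with both drugs 198.8, 248.8 and 230.8. DAC and ATRA libraries overlapped with each other, every one of them lay above untreated, and all DAC+ATRA libraries lay far above both. The log2 fold change against untreated was 3.08 ± 0.32 (SE, adjusted p = 2.2e-06) with DAC, 2.81 ± 0.32 (SE, adjusted p = 1.12e-06) with ATRA and 5.92 ± 0.32 (SE, adjusted p = 3.19e-11) with both. The combination was also above DAC by 2.84 ± 0.32 (SE, adjusted p = 1.52e-06) and above ATRA by 3.11 ± 0.32 (SE, adjusted p = 1.23e-06). The interaction was 0.03 ± 0.46 (SE, adjusted p = 0.989), so on the log2 scale the combined change did not differ detectably from the sum of the single changes. FAM228B overlaps TP53I3 on the opposite strand.

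AEN, an exonuclease that fragments DNA in apoptosis, rose with DAC and rose further with both drugs. It had 683.6, 629.2 and 688.8 in untreated cells, 1178, 1062 and 1168 with DAC, 807.2, 741.9 and 678 with ATRA and 1778, 1592 and 1488 with both drugs. ATRA and untreated libraries overlapped, DAC libraries were above both, and DAC+ATRA libraries were above all others. The change was 0.77 ± 0.11 (SE, adjusted p = 5.47e-05) with DAC, 1.12 ± 0.11 (SE, adjusted p = 4.19e-07) when DAC was added to ATRA and 0.51 ± 0.11 (SE, adjusted p = 0.00125) when ATRA was added to DAC, the last call being lost without DAC+ATRA replicate 1, with an adjusted p of 0.0112. ATRA alone gave 0.15 ± 0.11 (SE, adjusted p = 0.295).

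DRAM1, a lysosomal membrane protein that promotes autophagy, had the second largest rise with DAC alone and fell with ATRA alone. Values were 457.3, 419.7 and 340.6 in untreated cells, 1567, 1543 and 1734 with DAC, 291.2, 252.3 and 257.5 with ATRA and 792.3, 706.9 and 694.3 with both drugs. The groups did not overlap, with ATRA lowest and DAC highest. The DAC change was 2.00 ± 0.12 (SE, adjusted p = 2.39e-09) without ATRA and 1.45 ± 0.12 (SE, adjusted p = 8.86e-08) with it. ATRA lowered DRAM1 (log2 change -0.59 ± 0.12, adjusted p = 0.000755) without DAC and (log2 change -1.14 ± 0.12, adjusted p = 6.79e-07) with it. The combination remained above untreated at 0.86 ± 0.12 (SE, adjusted p = 1.7e-05).

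Among the members, the receptors for the death ligand TRAIL changed little in size. TNFRSF10A (TRAIL receptor 1) had 613.6, 582.1 and 616 in untreated cells, 599.2, 541 and 608.5 with DAC, 398.7, 450.2 and 403.8 with ATRA and 631.3, 607.8 and 613.7 with both drugs. Only the ATRA libraries stood apart, below all the rest. ATRA lowered it (log2 change -0.53 ± 0.11, adjusted p = 0.00052), and adding DAC to ATRA raised it by 0.57 ± 0.11 (SE, adjusted p = 0.000747). TNFRSF10B (TRAIL receptor 2) had 1245, 1398 and 1422 in untreated cells, 1867, 1712 and 1778 with DAC, 1277, 1464 and 1279 with ATRA and 1242, 1207 and 1307 with both drugs. Here the DAC libraries stood apart, above the rest. The DAC change was 0.40 ± 0.10 (SE, adjusted p = 0.00971), a call lost in 10 of 12 fits without 1 library (all but those without DAC replicate 3 and ATRA replicate 1), and also with edgeR, total scaling, only the compared groups fitted or the replicate block or without the filter on low values, with an adjusted p of up to 0.062. With DAC+ATRA it was below DAC (log2 change -0.51 ± 0.10, adjusted p = 0.000602). Outside the members, the TRAIL receptor TNFRSF10C rose with ATRA by 1.13 ± 0.25 (SE, adjusted p = 0.0012). TNFRSF10D gave -0.48 ± 0.14 (SE, adjusted p = 0.0103) with ATRA, which was not called here but passed in some alternative fits.

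PHLDA3, which competes with AKT for membrane lipids and so restrains survival signalling, rose when DAC was added to ATRA. Its values were 89.43, 122.6 and 116.7 in untreated cells, 295.1, 219.5 and 124.1 with DAC, 48.38, 62.51 and 63.54 with ATRA and 173.6, 202.6 and 189.9 with both drugs. ATRA libraries were below all others and DAC replicate 3 was far below the other DAC libraries. The change from ATRA to DAC+ATRA was 1.69 ± 0.24 (SE, adjusted p = 4.99e-05), and ATRA alone lowered PHLDA3 (log2 change -0.90 ± 0.24, adjusted p = 0.00605). The ATRA call was lost without untreated replicate 2 or 3 or ATRA replicate 1, 2 or 3, and also without the filter on low values, with an adjusted p of up to 0.0332. With DAC alone the change was 0.88 ± 0.24 (SE, adjusted p = 0.0173), which passed the threshold without DAC replicate 3, and also with DESeq2 or edgeR, with an adjusted p as low as 0.000111, and the combination was at 0.79 ± 0.24 (SE, adjusted p = 0.0132) against untreated, which passed without DAC replicate 1 or 3, and also with DESeq2, edgeR or only the compared groups fitted, with an adjusted p as low as 0.000413.

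TP53INP1, a stress protein of autophagy and cell death, was low, with 25.66, 27.6 and 20.07 in untreated cells, 35.62, 42.34 and 56.6 with DAC, 32.25, 65.48 and 49.32 with ATRA and 57.39, 67.54 and 43.91 with both drugs. All treated libraries lay above all untreated ones. The combination was called, at 1.16 ± 0.29 (SE, adjusted p = 0.00306), a call lost without untreated replicate 3 or DAC+ATRA replicate 1 or 2, with an adjusted p of up to 0.0216. ATRA alone gave 0.93 ± 0.29 (SE, adjusted p = 0.0151), which passed without DAC replicate 3 or ATRA replicate 1, and also with DESeq2 or edgeR, with an adjusted p as low as 0.00343. TRIAP1, a small mitochondrial protein that restrains cell death, had 675, 658.4 and 735.8 in untreated cells, 844.7, 738.6 and 853.4 with DAC, 695.2, 658.6 and 628.7 with ATRA and 1118, 871.2 and 911.8 with both drugs. DAC+ATRA libraries were above all others, by 0.48 ± 0.12 (SE, adjusted p = 0.0025) against untreated and 0.54 ± 0.12 (SE, adjusted p = 0.00217) against ATRA. The first call was lost without untreated replicate 1 or 2 or DAC+ATRA replicate 1, with an adjusted p of up to 0.0225. The other was lost without ATRA replicate 2 or 3 or DAC+ATRA replicate 1, with an adjusted p of up to 0.0202. SUSD6, a membrane protein that hinders cell growth, had 266, 307.7 and 367.6 in untreated cells, 452.9, 396.8 and 271 with DAC, 675.5, 863.2 and 789.2 with ATRA and 585.1, 659.6 and 607.5 with both drugs. Libraries with ATRA lay above those without it, by 1.31 ± 0.17 (SE, adjusted p = 3.61e-06) without DAC and 0.75 ± 0.17 (SE, adjusted p = 0.00182) with DAC, the latter call being lost without DAC+ATRA replicate 2, with an adjusted p of 0.0126.

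The members under the filter were all cell death genes, and they get no test. FAS, the receptor of FAS ligand, had at most 13.22 normalised counts in any library. EDA2R, a receptor of the TNF receptor family, had 0.78 to 1.26 in untreated cells, 5.44 to 7.63 with DAC, 0 to 2.23 with ATRA and 1.13 to 5.60 with both drugs. SPATA18 (Mieap), a protein of mitochondrial quality control, was at 0 in all untreated and ATRA libraries, and had 1.27 to 3.27 in DAC and 1.02 to 3.38 in DAC+ATRA libraries. CYFIP2, an actin regulator, had at most 1.26 in untreated and 0.90 in ATRA libraries and up to 8.91 in DAC and 6.999 in DAC+ATRA libraries. The value of 3 reads was 1.88 to 2.44 normalised counts in untreated and 3.27 to 4.70 in DAC libraries, so SPATA18 stayed at the level of single reads.

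Of the DNA repair members, XPC, which recognises distorted DNA for nucleotide excision repair, was above untreated in all treatments. Its values were 598.8, 684.4 and 610.3 in untreated cells, 991, 926.8 and 977.5 with DAC, 844.8, 867.7 and 880.3 with ATRA and 905.7, 993.9 and 893.4 with both drugs. No treated library overlapped with untreated, and the treated groups lay close together. The changes were 0.61 ± 0.10 (SE, adjusted p = 0.000299) with DAC, 0.46 ± 0.10 (SE, adjusted p = 0.00133) with ATRA and 0.56 ± 0.10 (SE, adjusted p = 0.000184) with both.

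DDB2, the partner of XPC in finding ultraviolet damage, went the other way with ATRA. It had 537.4, 586.2 and 494.9 in untreated cells, 725.1, 680.6 and 799 with DAC, 236.5, 317 and 233.2 with ATRA and 371, 320.8 and 397.2 with both drugs. The groups did not overlap, with DAC highest and ATRA lowest. ATRA lowered it (log2 change -1.05 ± 0.14, adjusted p = 5.36e-06) without DAC and (log2 change -1.02 ± 0.14, adjusted p = 1.18e-05) with DAC. The changes with DAC, 0.45 ± 0.14 (SE, adjusted p = 0.0332) alone and 0.48 ± 0.14 (SE, adjusted p = 0.018) with ATRA, did not pass the threshold, and the second of them passed without DAC replicate 3 or ATRA replicate 2, with an adjusted p as low as 0.00545. With both drugs DDB2 was below untreated (log2 change -0.57 ± 0.14, adjusted p = 0.00251), a call lost without untreated replicate 2 or DAC+ATRA replicate 2, with an adjusted p of up to 0.0208.

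POLH, the polymerase that copies past ultraviolet damage, had 303.3, 321.5 and 401.5 in untreated cells, 410.9, 401.5 and 401.7 with DAC, 243.7, 291 and 266.7 with ATRA and 379.3, 368.1 and 418.6 with both drugs. Its only call was DAC+ATRA against ATRA, 0.54 ± 0.13 (SE, adjusted p = 0.00547), which was lost without ATRA replicate 1 or 3 or DAC+ATRA replicate 1, 2 or 3, with an adjusted p of up to 0.0357. ASCC3, a helicase of alkylation repair and of ribosome quality control, had 1824, 1744 and 1628 in untreated cells, 2147, 2224 and 2790 with DAC, 1942, 1570 and 1541 with ATRA and 2396, 2410 and 2429 with both drugs. All libraries with DAC were above those without it. The change was 0.48 ± 0.12 (SE, adjusted p = 0.00254) for the combination against untreated and 0.53 ± 0.12 (SE, adjusted p = 0.00273) against ATRA, and DAC alone gave 0.45 ± 0.12 (SE, adjusted p = 0.011), which passed without DAC replicate 1 or ATRA replicate 1, and also with DESeq2, edgeR, TMM factors or a pseudocount of 5, with an adjusted p as low as 0.00209. The first of these calls was lost without untreated replicate 2 or 3 or DAC+ATRA replicate 2 or 3, with an adjusted p of up to 0.0147. The other was lost without ATRA replicate 2 or 3 or DAC+ATRA replicate 1, 2 or 3, with an adjusted p of up to 0.0207.

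In metabolism, TIGAR, a phosphatase that lowers glycolytic flux and favours the pentose phosphate pathway, rose with each drug. It had 27.22, 30.04 and 31.36 in untreated cells, 81.42, 89.39 and 68.58 with DAC, 112, 73.67 and 81.09 with ATRA and 127.4, 167.7 and 151.1 with both drugs. DAC and ATRA libraries overlapped, untreated libraries were below all of them, and DAC+ATRA libraries were above. The changes were 1.40 ± 0.21 (SE, adjusted p = 9.93e-05) with DAC, 1.54 ± 0.21 (SE, adjusted p = 7.17e-06) with ATRA and 2.29 ± 0.21 (SE, adjusted p = 4.39e-08) with both. The combination was above DAC by 0.89 ± 0.21 (SE, adjusted p = 0.00277), a call lost without DAC replicate 3 or DAC+ATRA replicate 2 or 3, with an adjusted p of up to 0.0216. Its difference from ATRA, 0.75 ± 0.21 (SE, adjusted p = 0.0136), was not called but passed without DAC replicate 3 or ATRA replicate 1, and also with DESeq2 or edgeR, with an adjusted p as low as 0.00401.

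The sestrins, stress proteins that restrain mTORC1 signalling, differed from each other. SESN1 had 118.2, 118.5 and 110.4 in untreated cells, 156.5, 183.5 and 202.5 with DAC, 96.76, 103.4 and 98.65 with ATRA and 186.2, 171.1 and 163.4 with both drugs. Libraries with DAC were above those without it, by 0.63 ± 0.15 (SE, adjusted p = 0.00747) without ATRA and 0.79 ± 0.15 (SE, adjusted p = 0.000869) with it. The first of these calls was lost in 9 of 12 fits without 1 library (all but those without DAC replicate 1 and ATRA replicate 1 and 3), and also with total scaling, only the compared groups fitted or the replicate block, with an adjusted p of up to 0.0399. The combination was above untreated by 0.58 ± 0.15 (SE, adjusted p = 0.00476), a call lost without untreated replicate 1, 2 or 3 or DAC+ATRA replicate 1, 2 or 3, with an adjusted p of up to 0.0237. SESN2 had 524.9, 610.5 and 491.8 in untreated cells, 451.6, 334 and 246 with DAC, 291.2, 340.8 and 330.2 with ATRA and 379.3, 453.6 and 475.8 with both drugs. All treated libraries were below the untreated ones. It fell with DAC (log2 change -0.69 ± 0.17, adjusted p = 0.00969) and with ATRA (log2 change -0.75 ± 0.17, adjusted p = 0.00181). The DAC call was lost in 11 of 12 fits without 1 library (all but those without DAC replicate 1), and also with a pseudocount of 0.1, only the compared groups fitted or the replicate block or without the filter on low values, with an adjusted p of up to 0.0789. The ATRA call was lost without untreated replicate 2, with an adjusted p of 0.0157. With both drugs SESN2 was not called against untreated, at -0.31 ± 0.17 (SE, adjusted p = 0.159). Its interaction, 1.13 ± 0.24 (SE, adjusted p = 0.0113), was not called either. It passed without DAC replicate 1 or 3, and also with DESeq2, edgeR or a pseudocount of 5, with an adjusted p as low as 0.000944.

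PANK1, which starts coenzyme A synthesis, had 182, 146.9 and 168.1 in untreated cells, 115.8, 156.8 and 149.1 with DAC, 134.4, 82.6 and 92.8 with ATRA and 124.6, 118.2 and 88.83 with both drugs. It fell with ATRA (log2 change -0.70 ± 0.20, adjusted p = 0.0096), a call lost in 8 of 12 fits without 1 library (all but those without DAC replicate 1 and 3, ATRA replicate 1 and DAC+ATRA replicate 3), and also with TMM factors, a pseudocount of 0.1, only the compared groups fitted or the replicate block or without the filter on low values, with an adjusted p of up to 0.0623. The ATRA libraries lay below the untreated ones and overlapped with the other groups. ACER2, a Golgi ceramidase, and FDXR, which passes electrons to mitochondrial P450 enzymes, were not called. ACER2 had 14 to 42.66 normalised counts in untreated and 53.34 to 89.39 in DAC libraries, which did not overlap, with a change of 1.26 ± 0.33 (SE, adjusted p = 0.014) that passed without untreated replicate 3 or DAC replicate 3, and also with DESeq2 or only genes of 1 transcript row, with an adjusted p as low as 0.00459. FDXR had 29.26 and 31.36 in DAC replicates 1 and 2 and 5.44 in replicate 3.

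GDF15, a secreted stress cytokine of the TGF-beta family, rose with ATRA, and its DAC change depended on ATRA. It had 32.66, 45.46 and 28.86 in untreated cells, 22.9, 23.52 and 28.3 with DAC, 125.4, 122.8 and 128.7 with ATRA and 280, 281.4 and 273.6 with both drugs. The groups did not overlap, and the spread between ATRA libraries and between DAC+ATRA libraries was small. ATRA raised GDF15 by 1.81 ± 0.20 (SE, adjusted p = 5.18e-07), and the combination stood at 2.96 ± 0.20 (SE, adjusted p = 6.06e-10) against untreated. DAC changed it by -0.48 ± 0.20 (SE, adjusted p = 0.111) without ATRA and by 1.14 ± 0.20 (SE, adjusted p = 0.000358) with it. The interaction was 1.62 ± 0.28 (SE, adjusted p = 0.00168).

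ZMAT3, an RNA-binding protein that regulates splicing and RNA decay, rose with each drug. Its values were 285.4, 300.4 and 315.5 in untreated cells, 631, 751.2 and 915.4 with DAC, 475.7, 471.8 and 470.7 with ATRA and 890.3, 966.9 and 974.1 with both drugs. Untreated libraries were lowest, ATRA next, and both groups with DAC were above. The changes were 1.33 ± 0.12 (SE, adjusted p = 5.91e-07) with DAC, 0.65 ± 0.12 (SE, adjusted p = 0.000354) with ATRA, 1.65 ± 0.12 (SE, adjusted p = 3.78e-09) with both and 0.99 ± 0.12 (SE, adjusted p = 1.18e-05) when DAC was added to ATRA. No alternative fit changed these calls, while the step from DAC to DAC+ATRA, 0.32 ± 0.12 (SE, adjusted p = 0.0652), passed without DAC replicate 3, with an adjusted p of 0.00439.

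RPS27L, a ribosomal protein that resembles RPS27 closely enough that shared reads make its level uncertain, had 340.6, 313.4 and 289.2 in untreated cells, 451.6, 440.7 and 607.4 with DAC, 268.8, 261.9 and 254.1 with ATRA and 460.5, 361.3 and 342.1 with both drugs. The order was ATRA, untreated, then the groups with DAC. It rose with DAC by 0.65 ± 0.15 (SE, adjusted p = 0.00426), a call lost without untreated replicate 2 or 3 or DAC replicate 3, and also with only the compared groups fitted, with an adjusted p of up to 0.0317. The difference between DAC+ATRA and ATRA, 0.55 ± 0.15 (SE, adjusted p = 0.0102), passed without DAC replicate 1 or 3, and also with DESeq2, total scaling, a pseudocount of 5 or only the compared groups fitted, with an adjusted p as low as 0.00173. BLOC1S2, a subunit of a complex for lysosome-related organelles, had 135.3, 108 and 115.4 in untreated cells, 166.7, 174.1 and 138.2 with DAC, 176.5, 208.4 and 171.4 with ATRA and 238, 202.6 and 231.8 with both drugs. All treated libraries were above untreated, and the change was called with ATRA, 0.63 ± 0.16 (SE, adjusted p = 0.00333), and with both drugs, 0.90 ± 0.16 (SE, adjusted p = 0.000119). The ATRA call was lost without untreated replicate 2 or 3 or ATRA replicate 2, with an adjusted p of up to 0.024. ANKRA2, an ankyrin repeat protein that binds histone deacetylases, had 287.9 to 441.3 normalised counts over all libraries and was not called, but with both drugs its change, -0.38 ± 0.15 (SE, adjusted p = 0.0472), passed with only the compared groups fitted, with an adjusted p of 0.00773.

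The members thus fell into several patterns by their calls. TP53I3, XPC, TIGAR and ZMAT3 were higher in all 3 treatments than in untreated cells. AEN, TP53I3 and GDF15 were higher with both drugs than with either drug alone. DRAM1 was higher with DAC and lower with ATRA, BTG2 was the reverse, and SESN2 was lower with each single drug.

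Other parts of the p53 pathway were read from 3 further lists. Of 31 regulators of p53, 26 were tested, and with DAC 0 were higher and 1 was lower (3.85% beside 7.97% of all genes), the ribosomal protein RPL11, which restrains MDM2. Its change was -0.52 ± 0.11 (SE, adjusted p = 0.00311), a call lost without untreated replicate 1, 2 or 3 or DAC replicate 1 or 2, and also with only the compared groups fitted, with an adjusted p of up to 0.0477. With ATRA, 4 regulators were higher and 4 lower (30.8% beside 26.0% of all genes, median -0.01 beside -0.04), and leaving out 1 library gave 6 to 11 calls. HIPK2, a kinase that activates p53, rose from 161, 198.9 and 211.4 in untreated to 1748, 1754 and 1953 in ATRA libraries, a change of 3.26 ± 0.14 (SE, adjusted p = 9.17e-13). PPP1R13B (ASPP1), which steers p53 to cell death genes, changed by 2.04 ± 0.38 (SE, adjusted p = 0.000297), and the DNA damage kinases CHEK1 and PRKDC changed by -1.19 ± 0.33 (SE, adjusted p = 0.00746) and -0.79 ± 0.15 (SE, adjusted p = 0.000361). The CHEK1 call was lost without untreated replicate 1 or 2, ATRA replicate 1 or 3 or DAC+ATRA replicate 1, and also without the filter on low values, with an adjusted p of up to 0.0454. With both drugs 3 regulators were higher and 2 lower (19.2% beside 28.9%, median -0.01 beside -0.00), and leaving out 1 library gave 4 to 8. Among them were HIPK2 at 2.80 ± 0.14 (SE, adjusted p = 1.08e-11), PPP1R13B at 1.38 ± 0.38 (SE, adjusted p = 0.00731), RPL11 at -0.88 ± 0.11 (SE, adjusted p = 3.22e-06) and RPL5, another ribosomal binder of MDM2, at -0.65 ± 0.10 (SE, adjusted p = 3.47e-05). The PPP1R13B call was lost without untreated replicate 1 or 2, ATRA replicate 2 or 3 or DAC+ATRA replicate 1 or 2, and also with edgeR or without the filter on low values, with an adjusted p of up to 0.0531. When DAC was added to ATRA, PRKDC was higher at 0.77 ± 0.15 (SE, adjusted p = 0.00119), and SIRT1, a deacetylase of p53, and RPL11 were lower at -0.88 ± 0.17 (SE, adjusted p = 0.000916) and -0.47 ± 0.11 (SE, adjusted p = 0.00474) (3 of 26, 11.5% beside 11.9% of all genes). The PRKDC call was lost without ATRA replicate 2 or 3, with an adjusted p of up to 0.0113, and the RPL11 call without ATRA replicate 1, 2 or 3 or DAC+ATRA replicate 2 or 3, and also without the filter on low values, with an adjusted p of up to 0.033, so that 1 regulator was called without ATRA replicate 2 or 3. When ATRA was added to DAC, HIPK2 was higher at 2.63 ± 0.14 (SE, adjusted p = 2.92e-11) and RPL5 lower at -0.37 ± 0.10 (SE, adjusted p = 0.00921) (7.69% beside 18.8% of all genes), the second call being lost in 10 of 12 fits without 1 library (all but those without ATRA replicate 3 and DAC+ATRA replicate 1), and also with only the compared groups fitted or the replicate block or without the filter on low values, with an adjusted p of up to 0.0634.

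Of 41 other p53 targets, 30 were tested, and DAC raised 4 and lowered 3 (23.3% beside 7.97% of all genes), with a median of 0.01 beside -0.00 for all genes. TGFA, a ligand of the EGF receptor, had 7.777, 8.93 and 8.782 in untreated and 48.34, 61.16 and 54.42 in DAC libraries, and FUCA1, a lysosomal fucosidase, had 1029, 1033 and 1009 and 2542, 2553 and 2957. They rose by 2.55 ± 0.27 (SE, adjusted p = 2.39e-06) and 1.39 ± 0.09 (SE, adjusted p = 7.76e-09). PRDM1, a differentiation factor, fell with DAC at -1.73 ± 0.43 (SE, adjusted p = 0.00893), a call lost in 10 of 12 fits without 1 library (all but those without DAC replicate 3 and DAC+ATRA replicate 3), and also with DESeq2, edgeR, a pseudocount of 0.1, a pseudocount of 5, only the compared groups fitted or the replicate block or without the filter on low values, with an adjusted p of up to 0.0486. THBS1, a matrix protein that inhibits vessel growth, fell at -1.53 ± 0.17 (SE, adjusted p = 3.65e-06), a call lost with only the compared groups fitted, with an adjusted p of 0.0106. With ATRA 12 of these genes were higher and 4 lower (53.3% beside 26.0% of all genes, median 0.51 beside -0.04), and with both drugs 9 were higher and 3 lower (40.0% beside 28.9%, median 0.47 beside -0.00). THBS1 had 103.4, 119.3 and 95.35 in untreated, 4294, 3548 and 3527 in ATRA and 7321, 7733 and 7882 in DAC+ATRA libraries, a change of 5.15 ± 0.17 (SE, adjusted p = 1.43e-14) with ATRA and 6.16 ± 0.17 (SE, adjusted p = 1.62e-15) with both drugs. SLC12A4, an ion cotransporter, changed by 4.59 ± 0.36 (SE, adjusted p = 4.94e-09) with ATRA. CD82, a tetraspanin, fell with ATRA, -2.18 ± 0.15 (SE, adjusted p = 8.07e-10), and with both drugs, -1.72 ± 0.15 (SE, adjusted p = 2.63e-08), and IKBIP fell with ATRA at -0.81 ± 0.17 (SE, adjusted p = 0.000703). PMAIP1 (NOXA), a BH3-only cell death protein, changed by -1.38 ± 0.23 (SE, adjusted p = 0.000369) with DAC, 1.35 ± 0.23 (SE, adjusted p = 0.000125) with ATRA and -0.89 ± 0.23 (SE, adjusted p = 0.00472) with both drugs. The DAC call was lost with only the compared groups fitted, with an adjusted p of 0.0332, and the call with both drugs without untreated replicate 1 or 2 or DAC+ATRA replicate 1, 2 or 3, and also without the filter on low values, with an adjusted p of up to 0.0426. BAX, another cell death gene of this list, went the other way with DAC, 1.03 ± 0.14 (SE, adjusted p = 4.03e-05). It was also higher with both drugs, 1.16 ± 0.14 (SE, adjusted p = 1.98e-06). BBC3, a further cell death gene, was not called against untreated with either drug or with both. With both drugs TGFA rose by 3.19 ± 0.27 (SE, adjusted p = 1.87e-08) and SLC12A4 by 3.56 ± 0.36 (SE, adjusted p = 1.92e-07). When DAC was added to ATRA, 6 were higher and 4 lower (33.3% beside 11.9%), with TGFA at 1.62 ± 0.27 (SE, adjusted p = 0.000248), FUCA1 at 1.26 ± 0.09 (SE, adjusted p = 1.58e-08), RRAD, a small GTPase, at -3.20 ± 0.72 (SE, adjusted p = 0.0033) and PMAIP1 at -2.24 ± 0.23 (SE, adjusted p = 1.14e-06). The RRAD call was lost without ATRA replicate 1 or 2 or DAC+ATRA replicate 2, and also with a pseudocount of 0.1, with an adjusted p of up to 0.0788. When ATRA was added to DAC, 8 were higher and 2 lower (33.3% beside 18.8%), with THBS1 at 7.70 ± 0.17 (SE, adjusted p = 5.64e-17), SLC12A4 at 3.07 ± 0.36 (SE, adjusted p = 1.88e-06), CD82 at -1.44 ± 0.15 (SE, adjusted p = 4.44e-07) and RRM2B, a ribonucleotide reductase subunit, at -0.42 ± 0.10 (SE, adjusted p = 0.00416). The RRM2B call was lost without DAC replicate 3 or DAC+ATRA replicate 1, 2 or 3, and also with only the compared groups fitted, with an adjusted p of up to 0.0264.

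Genes that p53 lowers through p21 and the DREAM repressor complex, mostly genes of mitosis and DNA replication, formed the third list, with 34 of 35 tested. With DAC 0 were called by limma, by DESeq2 or by edgeR, 3 had an unadjusted p under 0.05, all higher, and the median was 0.22 beside -0.00 for all genes. With ATRA 24 were lower and 0 higher (70.6% called beside 26.0% of all genes and 14.0% lower, median -1.04 beside -0.04), and with both drugs 15 were lower and 0 higher (44.1% beside 28.9% and 14.4% lower, median -0.66 beside -0.00). Leaving out 1 library gave 15 to 24 calls with ATRA, the fewest without ATRA replicate 3 or untreated replicate 2, and 9 to 16 with both drugs, the fewest without DAC+ATRA replicate 3. PBK and BUB1, mitotic kinases, changed with ATRA by -1.81 ± 0.21 (SE, adjusted p = 1.4e-06) and -1.72 ± 0.38 (SE, adjusted p = 0.00139), the second call being lost without untreated replicate 2 or ATRA replicate 3, with an adjusted p of up to 0.0166. PBK and BIRC5 (survivin) changed by -1.66 ± 0.21 (SE, adjusted p = 4.52e-06) and -1.55 ± 0.30 (SE, adjusted p = 0.000335) with both drugs. When DAC was added to ATRA, 3 were higher (8.82% beside 11.9%), E2F1, MCM5 and CDK1, with E2F1 at 0.98 ± 0.19 (SE, adjusted p = 0.00102) and MCM5 at 0.80 ± 0.18 (SE, adjusted p = 0.00338). The MCM5 call was lost without ATRA replicate 2 or 3 or DAC+ATRA replicate 1 or 2, with an adjusted p of up to 0.0289, and the CDK1 call in 9 of 12 fits without 1 library (all but those without DAC replicate 1 and 3 and ATRA replicate 2), and also with edgeR, a pseudocount of 0.1, only the compared groups fitted or the replicate block or without the filter on low values, with an adjusted p of up to 0.0588. When ATRA was added to DAC, 17 of 34 were lower (beside 18.8% of all genes called, 9.74% lower), with PBK at -1.63 ± 0.21 (SE, adjusted p = 7.87e-06) and AURKA at -1.37 ± 0.25 (SE, adjusted p = 0.000353). CDKN1A, the gene of p21, was not called in these comparisons by this fit. It was called in 7 of 21 alternative fits for DAC+ATRA against ATRA and in 1 of 21 for ATRA against untreated, as given above. Levels of many of these genes also move with the share of dividing cells, which was not measured in these libraries.

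**Figure D5:**
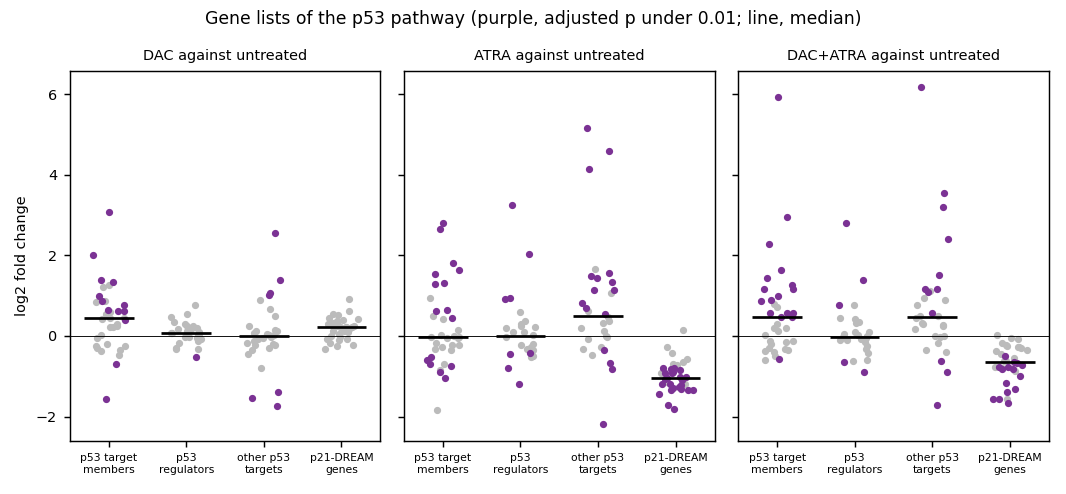
Log2 fold change of each tested gene against untreated cells with DAC, ATRA and DAC+ATRA, for the 35 p53 target genes, 26 regulators of p53, 30 other p53 targets and 34 genes lowered through p21 and DREAM (points, purple where the adjusted p was under 0.01, and black lines at medians). The p53 target genes have medians of 0.45, -0.04 and 0.48, and the genes lowered through p21 and DREAM 0.22, -1.04 and -0.66.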

How the data were processed

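RNA-sequencing of 12 MOLM-13 libraries was analysed, 3 each untreated or given DAC, ATRA or both, grouped by the submitters' labels. Per the labels and the study's methods, the authors checked reads with FastQC, aligned them to hg38 with STAR, counted them per transcript with htseq-count and normalised them with DESeq2. Tool versions, the annotation release, the strand setting and the treatment of reads shared by transcripts are not given in the sources used here, so overlapping, antisense and paralogous genes are uncertain. The deposited values are a signal, read counts divided by 1 size factor per library, and dividing each library by the value of 1 read gave whole numbers within 0.01 for 100% of values. Of 100502 transcript rows, 88.91% matched GENCODE v44 identifiers, which served for gene types, coordinates and element windows. Rows were summed per symbol.

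limma 3.58.1 (R 4.3.3) with a mean-variance trend was fitted to log2(normalised count + 1) over all 12 libraries, with 1 coefficient per group and Benjamini-Hochberg adjustment over the 10642 protein-coding genes that reached 10 normalised counts in 3 or more libraries. edgeR 4.0.16 and DESeq2 1.42.0, run on the reads recovered in this way, and other scalings, pseudocounts, filters, sample sets and omission of each library were alternatives. The fit was tested on simulated data. The members and lists were chosen with earlier results of these data known. Members called in any comparison, MDM2 and CDKN1A are given by library, and from the other lists the largest changes in each direction, up to 2 per comparison, with further genes of those lists named after their values were seen. Log2 fold changes are given with standard errors, group values as mean ± SD, and intervals and limits cover counting error only. Results of a few genes are not reported here.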

Additional observations from a re-analysis of the deposited data

Results flagged for a closer look

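The effect of DAC differed between cells with and without ATRA in 3 of the 35 tested p53 target genes and in 3 of the 30 other p53 targets, by the interaction term in limma at an adjusted p under 0.01. No explanation for these differences was tested. For comparison with both lists, the interaction was called in 1.60% of all genes tested. BTG2, the antiproliferative gene, had an interaction of -1.50 on the log2 scale (adjusted p = 3.43e-05), since DAC lowered it more with ATRA than without. PLK3 had one of -1.23 (adjusted p = 0.000372), and GDF15 one of 1.62 (adjusted p = 0.00168), the last with no called DAC change in the absence of ATRA. Among the other targets, the interaction was 2.55 for THBS1 (adjusted p = 3.45e-06), 0.90 for the antiproliferative gene BTG1 (adjusted p = 0.000878) and -0.81 for the early response gene IER5 (adjusted p = 0.00283). The IER5 call was lost without untreated replicate 1 or 3, ATRA replicate 2 or DAC+ATRA replicate 1 or 2, with an adjusted p of up to 0.0134. In each of these fits, 2 of the other targets had a called interaction. THBS1 fell with DAC alone, rose with ATRA, and rose further when DAC was added to ATRA.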

How the results depend on the processing

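Of 74 called values of single members, 54 kept their call under every alternative and none of the 74 changed direction under any of them. DESeq2 kept all 74, edgeR 73, limma with TMM factors 73 and total scaling 72. No other scaling moved the median of all genes by more than 0.09 on the log2 scale. The number of members called with DAC was 8 instead of 13 when the DAC and untreated libraries were fitted alone. Only 10 members have 1 transcript row. A fit of such genes alone called 4 members with DAC, 6 with ATRA, 7 with DAC+ATRA, 5 for DAC+ATRA against ATRA and 5 for DAC+ATRA against DAC. These include ACER2 with DAC and BTG2 with DAC+ATRA, which the main fit did not call. The interaction was called for 6 members by DESeq2 and for 5 at an adjusted p under 0.05, instead of 3. Leaving out 1 library gave 9 to 13 members called with DAC, 12 to 17 with ATRA, 13 to 19 with DAC+ATRA, 12 to 19 for DAC+ATRA against ATRA, 8 to 11 for DAC+ATRA against DAC and 3 to 4 for the interaction. Same-numbered libraries did not deviate together (correlations from -0.263 to 0.114), which gave no sign that the replicate numbers pair them. Some libraries of different number did, such as untreated replicate 1 with DAC replicate 3 (0.2457) and DAC replicate 3 with ATRA replicate 1 (0.2138). A source of deviation shared between groups was not tested. With the replicate number as a block, the counts were 10, 15, 17, 16, 10 and 3 in the same order, and 70 of the 74 calls were kept. DAC libraries had the fewest reads, which limits the members of low level such as FAS, EDA2R, CYFIP2 and SPATA18. Where a call changed, the cause was not tested.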
